A study of Homo sapiens with 6 samples.

Results

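This account covers 41 genes of DNA replication, chosen by name for their roles in origin licensing, helicase activation, the sliding clamp and its loader, the replicative polymerases and primase, single-strand binding, Okazaki fragment maturation, nucleotide supply and chromatin assembly. They are 41 of the 25940 gene names on the arrays, and 51 probes measured them. T47D is an established human luminal breast cancer cell line, and both lines compared here were derived from tumors that T47Dco, a T47D subline, formed in mice. pLUM (pure luminal) cells came from a tumor grown with estradiol (E), were sorted as CLD3+CD49f-, and were treated with 1 nM E for 72 h. pLB (pure luminobasal) cells came from a tumor grown with E and progesterone, were sorted as CLD3-CD49f+, and were kept without E (EWD, E withdrawn). Both were cultured in medium with 5% charcoal-stripped serum and sorted again on cytokeratin 5 before RNA was taken, and the labels do not say which cytokeratin 5 fraction was hybridized. Each line is 1 derivation profiled as 3 sorts, so that the spread between arrays is the spread between sorts of that line. Line, tumor hormone and E in culture coincided on every array and cannot be told apart. The same holds for the culture before the first sort, about 2 months for pLUM and 2.5 months for pLB.

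A eukaryotic chromosome is copied once per cell cycle because origins are loaded with the MCM2 to MCM7 helicase only in G1, with the help of the origin recognition complex, CDC6 and CDT1, whereas geminin (GMNN) blocks CDT1 once S phase has begun. The GINS complex and CDC45 then turn the loaded helicase into an active fork, where PCNA, loaded by the RFC complex, holds polymerases delta and epsilon on DNA, and FEN1 and LIG1 finish the lagging strand. Many of these genes are known targets of E2F factors, which are held back by the RB family, and as a group they are widely read as a sign of cycling cells. The arrays measured RNA from whole sorted populations, in which fewer cells in S phase and less RNA per such cell cannot be told apart.

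The arrays were 1-colour Agilent arrays, and values are log2 signals relative to the array's 75th percentile. Between 21285 and 22775 of 34127 probes were well above background on an array, and saturated gene spots numbered 0. The lines carried their labels by the brightest probe of each marker: 7 of 8 luminal markers were called lower in pLB, with cytokeratin 18 the exception, and 7 of 7 basal markers were called higher. The probes of the luminal marker KRT8 disagreed. A dimmer one was called higher in pLB (log2 1.89 ± 0.15, limma adjusted p = 4.48e-05) and another was called lower (log2 -2.57 ± 0.52). Of the markers of blood, endothelial and stromal cells, PTPRC, CDH5 and COL1A1 passed the filter on dim probes, with limma adjusted p of 0.413, 0.265 and 0.124, and CD3E, PECAM1 and PDGFRB did not pass it. A second PTPRC probe that passed was called lower in pLB (log2 -1.21 ± 0.25, limma adjusted p = 0.00453), and the remaining PTPRC probes were well above background on no array. Slide 1 carried all pLUM arrays together with pLB replicate 1, and slide 2 carried the remaining pLB arrays, replicates 2 and 3. Precision is limited by the 3 arrays a line, for which the lowest two-sided p of an exact permutation test is 0.1.

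The sequences shown first are those of the promoters of 6 members, chosen after their values were seen so that genes higher and lower in pLB stand side by side. Each is the 250 bases before the gene's start, 5′ to 3′ in the direction of the gene, from RefSeq on GRCh38.p14. Capitals mark the letters of an E2F motif, searched as TTTCCCGC, TTTCGCGC, TTTGCCGC and TTTGGCGC on both strands, so that GCGGGAAA is a match on the other strand. In MCM6 a match on each strand overlaps at both places. A further match of MCM3 begins with the closing letters shown and runs past the start, and those letters are left in lower case. CDT1, GINS2 and MCM6 were called higher in pLB, GMNN and LIG1 were called lower, and MCM3 was just short of 2-fold lower.
CDT1 (chr16:88803539-88803788, plus strand): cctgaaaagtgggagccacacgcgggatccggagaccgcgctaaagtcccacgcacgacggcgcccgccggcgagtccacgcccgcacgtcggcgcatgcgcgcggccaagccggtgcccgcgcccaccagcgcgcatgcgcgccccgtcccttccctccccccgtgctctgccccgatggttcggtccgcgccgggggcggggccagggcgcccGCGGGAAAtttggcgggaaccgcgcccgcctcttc
GINS2 (chr16:85688955-85689204, minus strand): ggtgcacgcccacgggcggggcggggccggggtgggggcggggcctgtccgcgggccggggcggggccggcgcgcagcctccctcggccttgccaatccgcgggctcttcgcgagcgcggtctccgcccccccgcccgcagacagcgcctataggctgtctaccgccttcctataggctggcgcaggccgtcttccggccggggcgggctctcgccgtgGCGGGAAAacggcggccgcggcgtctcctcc
MCM6 (chr2:135876444-135876693, minus strand): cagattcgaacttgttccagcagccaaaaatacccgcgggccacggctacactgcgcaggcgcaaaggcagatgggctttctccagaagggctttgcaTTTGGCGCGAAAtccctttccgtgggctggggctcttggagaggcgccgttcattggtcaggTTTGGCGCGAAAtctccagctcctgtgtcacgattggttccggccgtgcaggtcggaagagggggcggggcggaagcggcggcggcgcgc
MCM3 (chr6:52284743-52284992, minus strand): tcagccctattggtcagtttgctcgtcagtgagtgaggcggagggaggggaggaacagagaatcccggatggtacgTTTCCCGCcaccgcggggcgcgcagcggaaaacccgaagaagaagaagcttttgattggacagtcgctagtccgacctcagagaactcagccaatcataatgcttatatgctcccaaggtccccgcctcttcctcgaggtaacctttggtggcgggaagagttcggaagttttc
GMNN (chr6:24775163-24775412, plus strand): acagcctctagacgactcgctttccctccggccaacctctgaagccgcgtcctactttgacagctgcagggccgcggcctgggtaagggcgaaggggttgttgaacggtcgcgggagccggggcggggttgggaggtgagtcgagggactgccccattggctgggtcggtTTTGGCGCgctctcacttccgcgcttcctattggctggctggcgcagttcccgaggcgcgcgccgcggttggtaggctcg
LIG1 (chr19:48170345-48170594, minus strand): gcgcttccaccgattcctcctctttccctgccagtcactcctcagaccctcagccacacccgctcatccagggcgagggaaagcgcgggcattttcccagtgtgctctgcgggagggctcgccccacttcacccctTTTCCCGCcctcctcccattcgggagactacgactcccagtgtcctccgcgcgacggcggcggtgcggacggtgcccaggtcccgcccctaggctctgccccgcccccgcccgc

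The replication genes did not move as a block. Of the 41 members, 11 were called higher in pLB, 5 were called lower and 25 were not called, where a call required a difference of at least 2-fold and a limma adjusted p under 0.05 over all tested probes. The higher calls are 26.8% of the members, against 22.7% of the 17670 genes tested. The lower calls are 12.2% of the members, against 23.0% of the genes tested. Spike-in scaling gave 12 higher and 2 lower calls, with LIG1 and POLE2 still called lower, and quantile normalization gave 8 and 6. The median log2 fold change (pLB minus pLUM) was 0.31 over the members and 0.03 over all genes tested. The 3 arrays of each line did not overlap for 28 members, or 68.3%, against 69.2% of genes. Of these 28, in 17 members all pLB arrays lay above the pLUM arrays, a pattern found in 35.7% of genes, and in 11 they all lay below, found in 33.5%. No member changed by 16-fold or more, a size reached by 900 genes, and the median size of the log2 difference, regardless of sign, was 0.78 over the members and 0.92 over all genes. All 41 members passed the filter on dim probes, and 40 of them were well above background on all 6 arrays. The exception was CDC6, which was well above background on 1 pLUM and 2 pLB arrays.

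**Figure D1:**
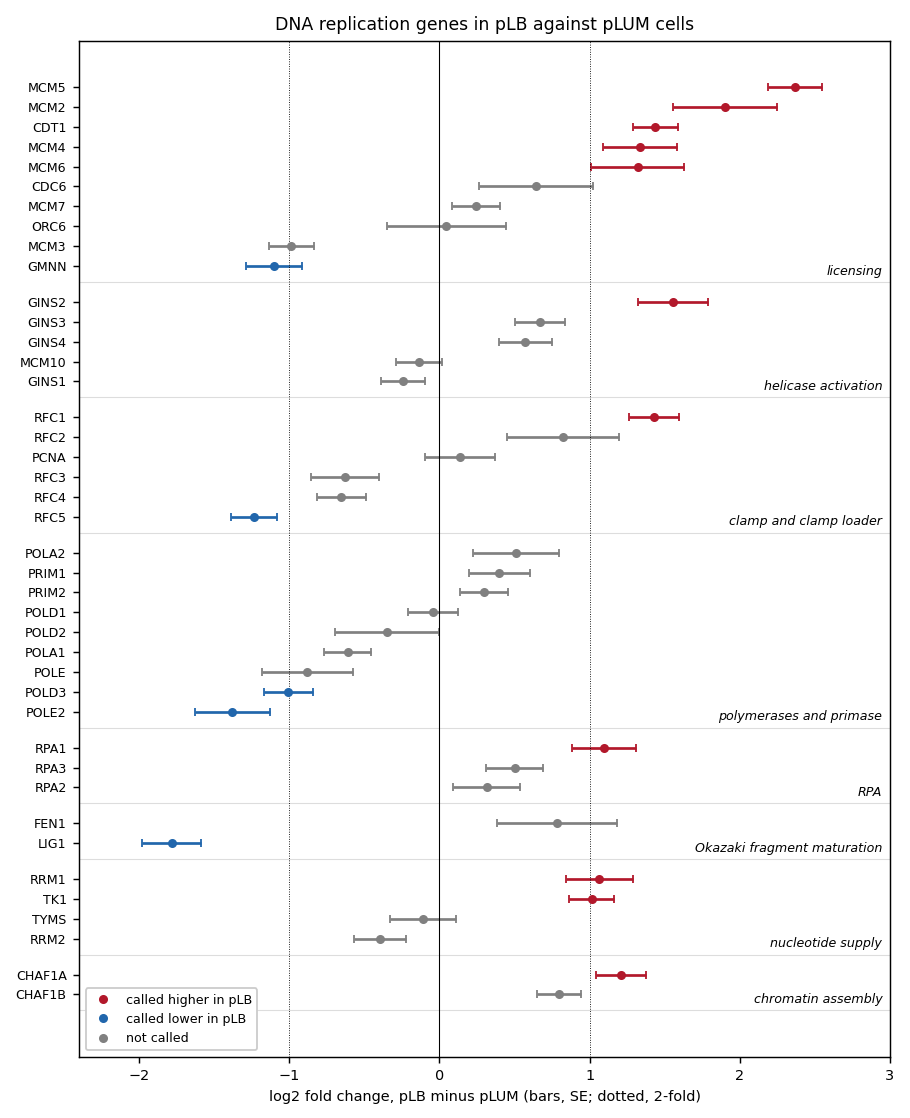
Log2 fold change (pLB minus pLUM) of each of the 41 replication genes by role, with bars for the standard error and dotted lines at 2-fold. Red genes were called higher in pLB (11), blue genes lower (5) and grey genes were not called (25). Licensing, helicase activation, the clamp and its loader, the polymerases and nucleotide supply each hold genes on both sides of 0.

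Origin licensing held the largest rise and also a fall. Of its 10 genes 5 were called higher in pLB and 1 lower, against 22.7% and 23.0% of all genes, with a median log2 fold change of 0.98. MCM5, a subunit of the ring-shaped MCM2 to MCM7 helicase, was at -0.45, -0.42 and -0.08 on the pLUM arrays and 2.15, 2.12 and 1.89 on the pLB arrays, and the lines were far apart. It was 5.16-fold higher in pLB (log2 2.37 ± 0.18, SE, n = 3 arrays a line, limma adjusted p = 3.12e-05), the largest difference of any member. A second MCM5 probe lay at -2.98, -2.39 and -2.33 on the pLUM arrays and -0.77, -0.63 and -1.29 on the pLB arrays and was also called higher (log2 1.67 ± 0.26). Both probes are printed because they read different stretches of the same message (NM_006739, hg19, plus strand). The file's position for the brighter one spans more bases than the 60 of the probe, as it would for a probe laid across a splice junction.
MCM5 brighter probe (chr22:35819307-35820178): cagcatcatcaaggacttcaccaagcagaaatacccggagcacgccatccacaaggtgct
MCM5 dimmer probe (chr22:35813789-35813848): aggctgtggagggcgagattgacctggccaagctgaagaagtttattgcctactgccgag

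The remaining helicase subunits split. MCM2 was at -0.13, 0.11 and 0.41 on the pLUM arrays and 2.59, 2.24 and 1.28 on the pLB arrays, so that pLB replicate 3 was the lowest pLB array but still above every pLUM array. It was 3.74-fold higher in pLB (log2 1.90 ± 0.35, limma adjusted p = 0.00231). MCM4 was at -0.06, 0.02 and 0.74 on the pLUM arrays and 1.50, 1.72 and 1.49 on the pLB arrays and was 2.53-fold higher (log2 1.34 ± 0.24, limma adjusted p = 0.00237). MCM6 was at 0.60, 0.68 and 0.89 on the pLUM arrays and 2.60, 2.15 and 1.38 on the pLB arrays and was 2.50-fold higher (log2 1.32 ± 0.31, limma adjusted p = 0.00746). As with MCM2, pLB replicate 3 was the lowest pLB array, and without pLB replicate 1 the log2 fold change of MCM6 was 1.04. MCM3 went the other way, at 4.86, 4.99 and 4.80 on the pLUM arrays and 3.92, 3.85 and 3.92 on the pLB arrays, with no overlap. Its difference of 1.98-fold (log2 -0.99 ± 0.15, limma adjusted p = 9.64e-04) was just under the 2-fold needed for a call, and it was called lower under quantile normalization (log2 -1.30) and without pLUM replicate 3 (-1.03). Median scaling, or leaving out pLUM replicate 1 or pLB replicate 3, moved it onto the 2-fold line and also gave a call. MCM7 was at 4.97, 5.10 and 5.02 on the pLUM arrays and 5.45, 5.14 and 5.23 on the pLB arrays and was not called (log2 0.24 ± 0.16). Its second probe was at -1.21, -0.75 and -0.91 on the pLUM arrays and -1.47, -1.20 and -1.12 on the pLB arrays, on the other side of 0 and not called either (log2 -0.31 ± 0.19). Within each array, where scaling has no part, the log2 ratio of MCM5 to MCM3, set to the pLUM mean, was -0.11, -0.21 and 0.32 in pLUM and 3.43, 3.47 and 3.17 in pLB. The ratio of these 2 subunits' signals was therefore higher by 3.35 on the log2 scale in pLB, and that of MCM2 to MCM7 by 1.66.

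CDT1, which loads the helicase, and GMNN, which inhibits CDT1, changed in opposite directions. CDT1 was at 2.24, 2.20 and 2.21 on the pLUM arrays and 3.63, 3.57 and 3.77 on the pLB arrays, with the pLUM arrays close together, and was 2.71-fold higher in pLB (log2 1.44 ± 0.15, limma adjusted p = 1.52e-04). GMNN was at 1.87, 2.04 and 1.57 on the pLUM arrays and 0.86, 0.75 and 0.56 on the pLB arrays and was 2.15-fold lower (log2 -1.10 ± 0.19, limma adjusted p = 0.00167). The arrays of the lines did not overlap for either gene. The GMNN value lay near the threshold, and its call was lost under spike-in scaling (log2 -0.85) and with slide as a block (log2 -0.97). With normexp background correction, or without pLUM replicate 2, it fell just short of 2-fold. The log2 ratio of CDT1 to GMNN on each array, relative to its pLUM mean, was -0.02, -0.23 and 0.25 in pLUM and 2.38, 2.42 and 2.82 in pLB, a shift of 2.54. This pair, like the other pairs of partners given here, was chosen after the values were seen, and its ratio is given as a description. In all, 17 pairs were compared, and not all split widely. The smallest shifts were those of CHAF1A to CHAF1B (0.41), POLE2 to POLE (-0.50, with the lines overlapping) and SSRP1 to SUPT16H (0.73). RPA1 to RPA2 shifted by 0.78 and TK1 to TYMS by 1.12. ORC6, the smallest subunit of the origin recognition complex, and CDC6 were not called (log2 0.05 ± 0.40 and 0.64 ± 0.38), and the lines overlapped for both. Without pLB replicate 1, CDC6 was called higher (log2 1.08). With normexp background correction CDC6 was at log2 -0.39 and with slide as a block at -0.24, so that its sign depended on the setting.

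**Figure D2:**
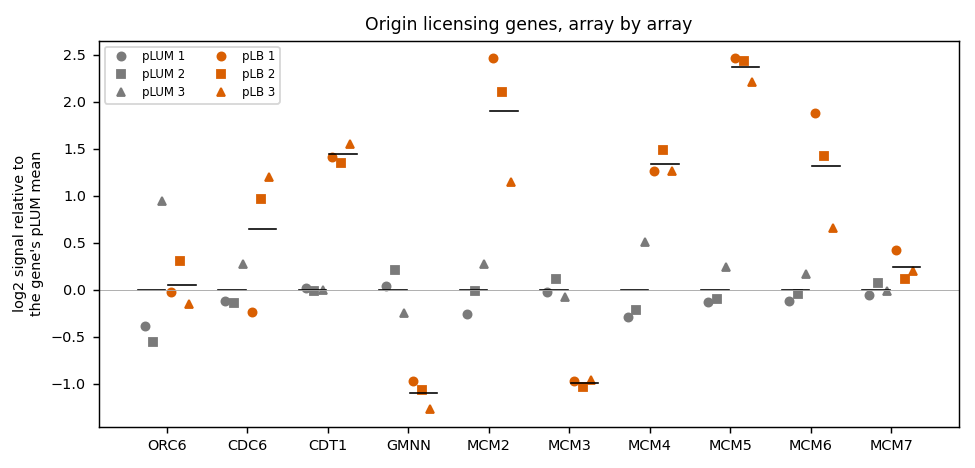
Log2 signal of the 10 origin licensing genes on each of the 6 arrays, relative to the gene's mean over the pLUM arrays (grey, pLUM; orange, pLB; marker shape, replicate number; black lines, means of the 3 arrays of a line). MCM2, MCM4, MCM5, MCM6 and CDT1 lie above the pLUM arrays in pLB and GMNN and MCM3 below them, whereas ORC6 and CDC6 overlap.

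Among the 5 helicase activation genes, GINS2 was called higher (20% of them, against 22.7% of all genes). None was called lower by limma, against 23.0% of all genes, and none was at an unadjusted p under 0.05 either. The GINS complex consists of GINS1, GINS2, GINS3 and GINS4 and joins the MCM ring and CDC45 in the active helicase. GINS2 was at 0.60, 0.85 and 0.93 on the pLUM arrays and 2.61, 2.53 and 1.89 on the pLB arrays, with no overlap, and was 2.94-fold higher in pLB (log2 1.55 ± 0.23, limma adjusted p = 9.27e-04). GINS3 and GINS4 were also higher on every pLB array than on any pLUM array, but below 2-fold (log2 0.67 ± 0.17 and 0.57 ± 0.18, limma adjusted p = 0.0102 and 0.0252). GINS1 was at 1.14, 1.25 and 1.18 on the pLUM arrays and 0.95, 0.98 and 0.91 on the pLB arrays, slightly lower on all pLB arrays, and did not pass the test (log2 -0.24 ± 0.15, limma adjusted p = 0.185, and log2 0.01 under spike-in scaling). The log2 ratio of GINS2 to GINS1 was thus higher in pLB by 1.80. MCM10, which helps the helicase to start, was not called (log2 -0.14 ± 0.15).

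RFC is the 5-subunit loader that opens the PCNA ring, and its subunits were found on both sides of 0. RFC1, the large subunit, was at -1.30, -1.20 and -1.13 on the pLUM arrays and 0.39, 0.25 and 0.02 on the pLB arrays and was 2.69-fold higher in pLB (log2 1.43 ± 0.17, limma adjusted p = 2.68e-04). RFC5, a small subunit, was at 2.28, 2.43 and 2.39 on the pLUM arrays and 1.22, 1.16 and 1.02 on the pLB arrays and was 2.35-fold lower (log2 -1.23 ± 0.15, limma adjusted p = 3.51e-04). Neither gene's arrays overlapped between the lines, and the log2 ratio of RFC1 to RFC5, relative to its pLUM mean, was -0.0045, -0.05 and 0.05 in pLUM and 2.75, 2.67 and 2.58 in pLB. This is a shift of 2.66, and that of RFC1 to RFC4 was 2.09. RFC4 and RFC3 were lower with adjusted p under the threshold but below 2-fold (log2 -0.66 ± 0.16 and -0.63 ± 0.23), and RFC3's second probe gave log2 -0.74 ± 0.24. RFC2 was at -1.44, -1.21 and -0.16 on the pLUM arrays and 0.17, 0.08 and -0.59 on the pLB arrays. Its lines overlapped, with pLUM replicate 3 high and pLB replicate 3 low, and it was not called (log2 0.82 ± 0.37, limma adjusted p = 0.0909). It was called higher without pLUM replicate 3 (log2 1.21) or without pLB replicate 3 (log2 1.06). PCNA, the clamp, was at 0.67, 1.14 and 0.99 on the pLUM arrays and 1.26, 1.29 and 0.68 on the pLB arrays, and overlapped (log2 0.14 ± 0.23). Its second probe was at -0.66, 0.07 and -0.07 on the pLUM arrays and -0.18, -0.42 and -0.39 on the pLB arrays, and overlapped too (log2 -0.11 ± 0.23).

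The 9 polymerase and primase genes had no higher call by limma, against 22.7% of all genes, and none at an unadjusted p under 0.05 either. They had 2 lower calls (22.2%, against 23.0% of all genes), and their median log2 fold change was -0.35. POLE2, the second subunit of the leading-strand polymerase epsilon, was at -0.63, -0.79 and -1.10 on the pLUM arrays and -2.66, -2.16 and -1.85 on the pLB arrays and was 2.60-fold lower in pLB (log2 -1.38 ± 0.25, limma adjusted p = 0.00222). POLE, its catalytic subunit, was at -2.06, -1.44 and -1.56 on the pLUM arrays and -3.05, -2.64 and -2.01 on the pLB arrays, lower on all but 1 pLB array than on every pLUM array. It was 1.84-fold lower (log2 -0.88 ± 0.30, limma adjusted p = 0.0372) and its second probe was at -2.60, -1.38 and -1.28 on the pLUM arrays and -2.91, -3.10 and -2.52 on the pLB arrays, which overlapped but was called lower (log2 -1.09 ± 0.37). With slide as a block the brighter POLE probe was called lower too (log2 -1.37), as it was without pLUM replicate 1 (-1.07) or pLB replicate 3 (-1.16). POLD3, an accessory subunit of the lagging-strand polymerase delta, was at 1.11, 1.14 and 0.96 on the pLUM arrays and 0.22, -0.07 and 0.04 on the pLB arrays with no overlap. Its difference of 2.01-fold (log2 -1.01 ± 0.16, limma adjusted p = 0.00125) was just over the fold required, and the call was lost with normexp (-0.87), spike-in scaling (-0.75) or slide as a block (-0.85). It was also lost without pLUM replicate 1 (-0.99) or 2 (-0.97), or without pLB replicate 2 (-0.94) or 3 (-0.99). POLA1, the catalytic subunit of the priming polymerase alpha, was lower below 2-fold (log2 -0.61 ± 0.16, limma adjusted p = 0.0116), whereas its partner POLA2 was not called (log2 0.51 ± 0.29). PRIM1, the catalytic primase subunit, and POLD1 and POLD2, the catalytic and an accessory subunit of polymerase delta, were not called either (log2 0.40 ± 0.21, -0.04 ± 0.17 and -0.35 ± 0.35).

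PRIM2, the large primase subunit, depended on the probe. The brightest probe was at -0.06, -0.26 and -0.31 on the pLUM arrays and 0.11, 0.15 and -0.0028 on the pLB arrays and was not called (log2 0.30 ± 0.16). A second probe was at -2.05, -2.19 and -2.55 on the pLUM arrays and -4.84, -3.84 and -3.44 on the pLB arrays and was called lower in pLB (log2 -1.78 ± 0.36, limma adjusted p = 0.00389), and the third probe was too dim to test. RPA1, the large subunit of the single-strand binding protein RPA, also had probes on both sides of 0. Its brighter probe was at 1.38, 1.48 and 1.45 on the pLUM arrays and 2.81, 2.68 and 2.11 on the pLB arrays and was 2.14-fold higher in pLB (log2 1.10 ± 0.22, limma adjusted p = 0.00332). Its dimmer probe was at -3.44, -3.33 and -3.67 on the pLUM arrays and -4.59, -4.20 and -3.79 on the pLB arrays, lower on every pLB array, with log2 -0.71 ± 0.24 (limma adjusted p = 0.0322, below 2-fold). With the 2 probes averaged, the log2 fold change of RPA1 was 0.19 and it was not called, nor was it without pLB replicate 1 (0.96) or under quantile normalization (0.94). RPA2 and RPA3, the smaller subunits, were not called (log2 0.31 ± 0.22 and 0.50 ± 0.19, limma adjusted p = 0.255 and 0.0532). Of the 9 members with more than 1 tested probe, MCM7, PCNA, PRIM2 and RPA1 had probes that differed in sign and CHAF1A, POLE, PRIM2 and RPA1 had probes that differed in call, but no gene had probes called in opposite directions.

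**Figure D3:**
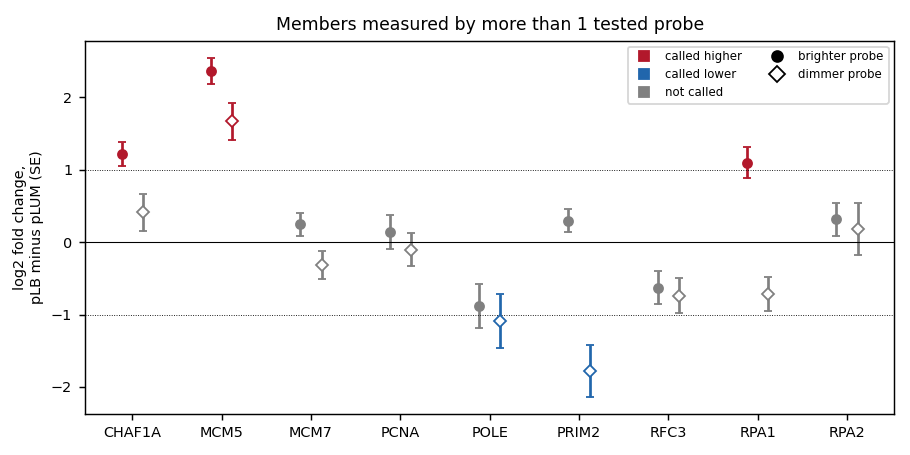
Log2 fold change (pLB minus pLUM, bars for the standard error) of both tested probes of the 9 members that had more than 1, with filled circles for the brighter probe and open diamonds for the dimmer one. Both MCM5 probes are called higher, whereas the PRIM2 and RPA1 probes lie on opposite sides of 0.

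The largest fall of any member was that of LIG1, the ligase that seals Okazaki fragments. LIG1 was at 3.87, 3.71 and 3.94 on the pLUM arrays and 1.81, 1.99 and 2.36 on the pLB arrays, well apart, and was 3.45-fold lower in pLB (log2 -1.79 ± 0.19, limma adjusted p = 1.86e-04). The call was kept in every alternative setting. FEN1, the nuclease that trims the same fragments before ligation, was at -3.19, -3.01 and -2.15 on the pLUM arrays and -1.61, -1.63 and -2.77 on the pLB arrays. The lines overlapped for it, with pLUM replicate 3 and pLB replicate 3 between the others, and it was not called (log2 0.78 ± 0.40, limma adjusted p = 0.126). Without pLB replicate 3 it was called higher (log2 1.16), whereas with normexp background correction it was at log2 0.26 and not called.

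**Figure D4:**
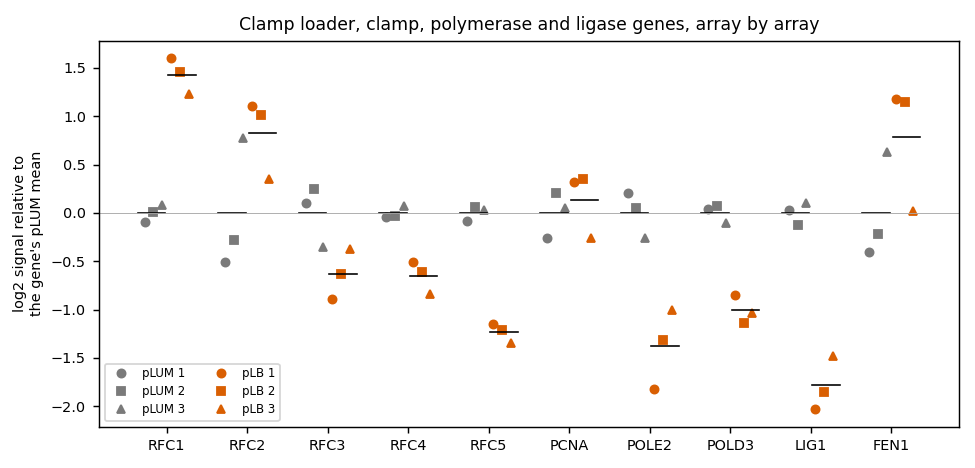
Log2 signal of the clamp loader, clamp, polymerase and ligase genes on each of the 6 arrays, relative to the gene's mean over the pLUM arrays (grey, pLUM; orange, pLB; marker shape, replicate number; black lines, means of the 3 arrays of a line). RFC1 is higher in pLB, RFC5, POLE2, POLD3 and LIG1 are lower, and PCNA, RFC2 and FEN1 overlap.

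In nucleotide supply, 2 of 4 genes were called higher, where 22.7% of all genes were. RRM1, the large subunit of ribonucleotide reductase, was at 1.29, 1.16 and 1.28 on the pLUM arrays and 2.68, 2.35 and 1.90 on the pLB arrays and was 2.09-fold higher in pLB (log2 1.06 ± 0.22, limma adjusted p = 0.00456). RRM2, its small subunit that is made mainly in S phase, was at -1.78, -1.50 and -1.69 on the pLUM arrays and -2.23, -1.89 and -2.03 on the pLB arrays, lower on all pLB arrays, and did not pass the test (log2 -0.39 ± 0.17, limma adjusted p = 0.083). The log2 ratio of RRM1 to RRM2 was higher in pLB by 1.46. TK1, the thymidine kinase of the salvage pathway, was at 4.28, 4.38 and 4.41 on the pLUM arrays and 5.29, 5.45 and 5.38 on the pLB arrays and was 2.02-fold higher (log2 1.01 ± 0.15, limma adjusted p = 8.61e-04). TYMS, the synthase of the other route to thymidylate, was not called (log2 -0.11 ± 0.22). Both calls lay near the threshold. RRM1 was at log2 0.88 without pLB replicate 1 and 0.92 under quantile normalization. TK1 was at 0.93 with slide as a block, 0.69 under quantile normalization, 0.97 without pLUM replicate 1 and 0.98 without pLB replicate 2, and neither gene was called in these settings.

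CHAF1A and CHAF1B, subunits of the CAF-1 complex that places histones on new DNA, were both higher in pLB. CHAF1A was at 0.64, 0.76 and 0.99 on the pLUM arrays and 2.07, 2.01 and 1.93 on the pLB arrays and was 2.31-fold higher (log2 1.21 ± 0.17, limma adjusted p = 5.62e-04), although its dim second probe, at -4.51, -4.50 and -3.72 on the pLUM arrays and -4.01, -3.85 and -3.63 on the pLB arrays, was not called (log2 0.41 ± 0.26). CHAF1B was at 0.24, 0.34 and 0.29 on the pLUM arrays and 1.12, 1.11 and 1.03 on the pLB arrays, with no overlap, and was 1.74-fold higher, which is below the fold required (log2 0.80 ± 0.15, limma adjusted p = 0.00245).

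The pLB arrays were not alike over the members. Relative to each gene's pLUM mean, the median over the 41 members was 0.42 in pLB replicate 1, 0.44 in pLB replicate 2 and 0.02 in pLB replicate 3. The corresponding medians over all 17670 genes were -0.05, -0.0038 and 0.14, so that pLB replicate 3 was the lowest pLB array for these genes and the highest for genes as a whole. It also had the lowest 75th percentile of signal (450 against 695 and 873 on the other pLB arrays) and the fewest probes well above background, and the part of either in the member values was not tested. Over the 11 members called higher the medians were 1.43, 1.42 and 1.14. Without pLB replicate 3, 13 members were called higher and 6 lower. With slide as a block, which sets only pLB replicate 1 against pLUM, 10 were called higher and 4 lower, and the median was 0.42. Without pLUM replicate 2 the lower calls fell to 3, as GMNN and POLD3 missed the fold required.

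Replication genes outside the 41 also had calls in both directions. Of 50 listed, 48 were tested by limma, 8 (16.7%) were called higher in pLB and 5 (10.4%) lower, both below the 22.7% and 23.0% of all genes, and the median log2 fold change was 0.19. Spike-in scaling gave 11 higher and 2 lower calls among them, and quantile normalization 6 and 8, and the shares of all genes under these scalings are not given. POLE4, a small histone-fold subunit of polymerase epsilon, was at 0.01, 0.08 and -0.26 on the pLUM arrays and 2.03, 1.99 and 1.95 on the pLB arrays and was 4.15-fold higher (log2 2.05 ± 0.16, limma adjusted p = 4.08e-05), with a second probe also called higher. Relative to the pLUM mean, the log2 ratio of POLE4 to POLE2, subunits of the same polymerase, was higher in pLB by 3.43. TOP1, the topoisomerase that relaxes DNA ahead of the fork, was 4.13-fold higher (log2 2.05 ± 0.19), and its second probe gave log2 2.59 ± 0.21. TIPIN, which protects paused forks as a partner of TIMELESS, was 4.12-fold higher (log2 2.04 ± 0.17), whereas TIMELESS itself was lower by less than 2-fold (log2 -0.91 ± 0.15, limma adjusted p = 0.00144). CLSPN, the mediator of the replication checkpoint, was 3.86-fold higher (log2 1.95 ± 0.39). It was dim on the pLUM arrays, at -4.69, -4.18 and -5.58, and well above background on 2 of these 3. DSCC1 of the alternative clamp loader was 3.79-fold higher (log2 1.92 ± 0.17), whereas CHTF18 of the same loader was lower below 2-fold (log2 -0.77 ± 0.19). SSRP1 of the histone chaperone FACT (log2 1.33 ± 0.16), RNASEH2B (log2 1.19 ± 0.18) and ORC1 (log2 1.07 ± 0.37) completed the higher calls, and ORC1 overlapped between the lines and was well above background on 2 arrays of each.

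MCM9, a helicase used in recombination repair, had the largest fall of these other genes. It was at 0.51, 0.57 and 0.08 on the pLUM arrays and -3.02, -2.59 and -2.26 on the pLB arrays and was 8.06-fold lower in pLB (log2 -3.01 ± 0.25, limma adjusted p = 4.58e-05). Its other tested probes were lower by less and were not called (log2 -0.30 ± 0.31 and -0.95 ± 0.36). RNASEH2C, a subunit of the same ribonuclease as RNASEH2B, was 4.62-fold lower (log2 -2.21 ± 0.17), and the log2 ratio of RNASEH2B to RNASEH2C was higher in pLB by 3.40. The nuclease and helicase DNA2 (log2 -1.16 ± 0.25), the initiation factor RECQL4 (log2 -1.10 ± 0.21) and the fork protein DONSON (log2 -1.01 ± 0.27) were the other lower calls. With slide as a block 8 of these genes were called lower rather than 5.

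Of the 16 E2F and RB family genes, all tested, 2 (12.5%) were called higher in pLB and 1 (6.25%) lower, against 22.7% and 23.0% of all genes. Higher calls numbered 4 under spike-in scaling and 1 with normexp background correction, settings for which the shares of all genes are not given. With no fold required, 6 were higher and 2 lower at a limma adjusted p under 0.05. TFDP2, a partner with which E2F factors bind DNA, was at 0.45, 0.57 and 0.53 on the pLUM arrays and 2.80, 2.38 and 2.81 on the pLB arrays and was 4.43-fold higher (log2 2.15 ± 0.18, limma adjusted p = 5.17e-05). RBL1, the RB relative p107, was at -2.45, -2.58 and -2.65 on the pLUM arrays and -0.80, -0.98 and -1.03 on the pLB arrays and was 3.08-fold higher (log2 1.62 ± 0.16, limma adjusted p = 1.08e-04), although its dim second probe was not called (log2 0.56 ± 0.34). E2F8, a repressor of the family, was at -1.53, -1.37 and -1.43 on the pLUM arrays and -2.88, -2.93 and -2.89 on the pLB arrays and was 2.75-fold lower (log2 -1.46 ± 0.15, limma adjusted p = 1.33e-04). These counts rest on the brightest probe of each gene. Dimmer probes of E2F7, E2F3 and E2F6 were called higher (log2 1.85 ± 0.28, 1.06 ± 0.27 and 1.03 ± 0.28), although their brightest probes were not. Another dimmer E2F6 probe and those of TFDP1 and CCNE2 were not called.

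E2F motif letters stood in promoters of members called higher, called lower and not called. Windows from 250 bases before to 50 after the start were matched by symbol for 35 of the 41 members, as 43 promoters. MCM4, MCM5, GINS4, POLD3, RPA2 and RPA3 were not matched. At least 1 of the 4 motifs stood in 18 of the 43 promoters, or 41.9%, against 3.31% of all 35116 promoters in the table. The promoters with a match belong to 4 of the 9 matched members called higher (CDT1, GINS2, MCM2 and MCM6), 3 of the 4 called lower (GMNN, LIG1 and POLE2) and 11 of the 22 not called. Of the 24 matches, 18 began within the 100 bases before the start or after it, as the printed sequences of CDT1 and GINS2 show. CCAAT, searched on both strands (ATTGG on the other), stood in 25 of the 43 promoters, or 58.1%, against 34.6% of all promoters. A match says that the letters are present in the window, and the arrays did not measure binding.

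**Figure D5:**
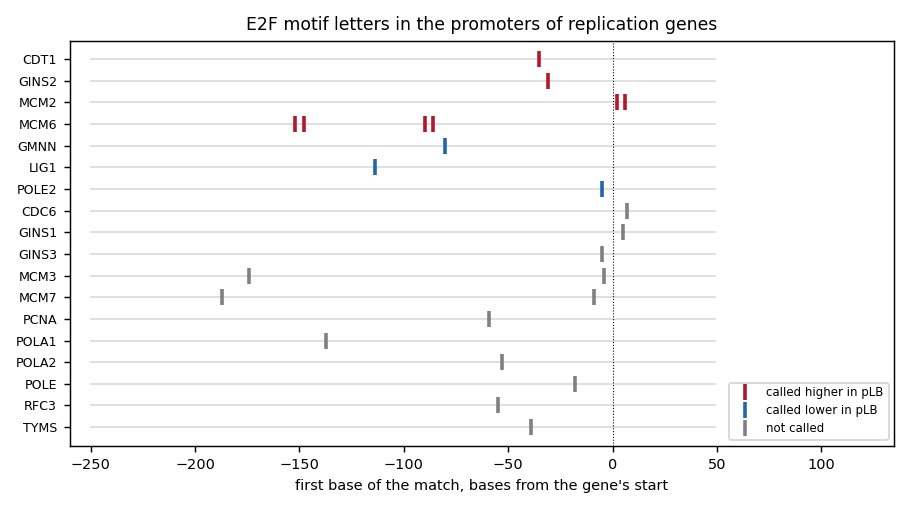
Position of each E2F motif match in the promoters of the 18 members that hold 1, as the first base of the match in bases from the gene's start (grey lines, the window searched; colours as the call in pLB). Matches lie mostly close to the start in genes called higher, called lower and not called alike.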

How the data were processed

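RNA of pLUM and pLB cells, 3 sorts each, was measured on 1-dye Agilent arrays. The authors deposited the Agilent Feature Extraction 10.10.1.1 output of each array, with an intensity per spot that had been corrected for background within the array but not normalized between arrays, together with the mean and background intensities used for the normexp alternative. Positions and gene names are those of the files (hg19). Partek is named in the submitters' processing notes without a role.

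The deposited intensities were divided by the 75th percentile of their array and put on the log2 scale. Control spots and outlier spots (296 to 387 an array) were dropped, replicate spots were averaged, and a probe was tested if 3 or more of the 6 arrays had it well above background. The 2 lines were set against each other in limma 3.58.1 (R 4.3.3, lmFit and eBayes) over 23105 probes, and calls required 2-fold and a Benjamini-Hochberg adjusted p under 0.05. A gene stands by its brightest tested probe. A 75th percentile of 450 to 873 on the arrays gives the signal depth.

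The members and lists were chosen with earlier results of these data known. All members are named by role. Array values are given for called members and for those whose probes disagree, and for further genes chosen after their values were seen. Of the other replication, E2F and RB genes, those called are named, and others where a partner is compared or a dimmer E2F or RB family probe is given. Alternatives were other background corrections, scalings, filters, thresholds, probe rules and blocks, the methods' t-test, and leaving out each array. Promoter sequences are from RefSeq (GRCh38.p14).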

Additional observations from a re-analysis of the deposited data

How the results depend on the processing

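Of the 16 called members, 9 kept their call in every alternative that gave a value, and no called member reversed in the settings run. Members called higher numbered 8 to 14 and, with an array left out, 10 to 13. Members called lower, 5 as reported, numbered 3 with normexp background correction, 2 with spike-in scaling, 10 with no fold threshold and 3 to 6 with an array left out. Other replication genes called lower, 5 as reported, numbered 3 with normexp, 8 with quantile normalization, 2 with spike-in scaling, 12 with no fold threshold, 8 with slide as a block and 10 when every probe was counted on its own, and those called higher numbered 18 with no fold threshold. With an array left out these other genes numbered 7 to 9 higher and 4 to 5 lower. Spike-in scaling, set by 179 control spots, moved the median gene up in pLB by 0.25 on the log2 scale, and the median of the members to 0.57. The lower calls of GMNN, POLD3 and RFC5 were lost under it, RFC5 at log2 -0.98. The cause of these differences was not tested beyond what each setting changes by construction. Calls lost in other settings were those of RPA1, RRM1, TK1 and CHAF1A, the last when its probes were averaged (log2 0.81).

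With the replicate number as a block, 11 members were called higher and 5 lower and no call changed. Deviations of arrays with the same number correlated at -0.27, -0.095 and -0.22, and those of arrays with unlike numbers at -0.029 to 0.25. Arrays with the same number thus shared no positive deviation. With 3 arrays a line, this cannot tell whether sorts with the same number were done together. The methods' t-test gave 11 higher and 5 lower calls among the members at the methods' threshold and after Benjamini-Hochberg adjustment. Signal over background limits CDC6 most, which was well above background on 3 of 6 arrays.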
